A study of Mus musculus with 2 samples.

Results

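The genes described here are the kinesins, found in the table by symbol: Kif followed by a number, with an optional letter and a further digit, or Kifc followed by a digit. There were 38 of them among 17408 genes, with 62355 unique molecular identifiers (UMIs, each marking 1 captured RNA molecule) in all, or 0.0525% of the total. By known role they were split into 12 spindle and cytokinesis kinesins, 16 transport kinesins, 7 kinesins of cilia and Hedgehog signalling and 3 others; Kif2b, Kif12 and Kif28 had no row and were not analysed here. The rule does not match Cenpe, a kinesin of the kinetochore, which is given with the partner genes. The study profiled unsorted cells from mouse embryonic fibroblasts on day 16 of their reprogramming towards pluripotency, in 2 droplet single-cell libraries that the labels place in 1 group. They bore STEMCCA, which encodes Myc, Klf4, Sox2 and Pou5f1 under control of doxycycline, and were grown in mouse embryonic stem cell medium with LIF and ascorbic acid at 50 µg/ml. The study's text speaks of a pair of independent STEMCCA mouse systems, and which library belongs to which system is not in the labels, so a difference between the libraries and one between the systems cannot be told apart. The labels also do not say whether the libraries came from separate cultures. The p-values rest only on how differences between groups of cells varied between these 2 libraries, which may be technical. In the limma tests this spread was also shared over all tested genes.

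Kinesins are motor proteins that use ATP to move along microtubules or to take their ends apart. Those of the spindle build the bipolar spindle, move and align chromosomes and organise the midzone at which a dividing cell is cut, and they are known as genes transcribed mainly in G2 and mitosis. Those of transport carry vesicles, mitochondria and other cargo, and several are best known from neurons. Fibroblasts that become pluripotent shorten their cell cycle, so a comparison of kinesins between identities has to be made at a like cycle state.

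The libraries held 3109 cells with 54145377 UMIs (replicate 1) and 3914 cells with 64654306 UMIs (replicate 2), and 12 cell barcodes occurred in both. Cells were put into states by genes other than kinesins. A cell was called G2/M-high where the sum of 24 G2/M genes passed 6.87 per 10000 UMIs, S-high where a sum of 29 S-phase genes passed 6.13 and it was not G2/M-high, and cycle-low otherwise. The pluripotent-like cells were 1 of 16 clusters, in which 11 of 11 pluripotency markers were raised, and kinesins and their partner genes were kept out of the clustering. They were 146 cells in replicate 1 and 390 in replicate 2, and 98.6% and 91.8% of them were G2/M-high, against 27.7% and 25.2% of the 2963 and 3524 other cells. S-high pluripotent-like cells (2 and 29) and cycle-low ones (0 and 3) were each fewer than 30 per library. Cycle states were therefore compared in the other cells alone, and identities were compared in G2/M-high cells. Depth moved with the states: the median was 13278 and 11821 UMIs in cycle-low, 20470 and 19584 in G2/M-high and 28956 and 26896 in pluripotent-like G2/M-high cells of replicates 1 and 2. Its part in the results was not tested, though the comparisons were repeated without the deepest cells and with cycle states read from 3000 UMIs per cell. All levels below are means over cells per 10000 UMIs, given for replicate 1 and then replicate 2, and the differences are on the log2(level + 0.1) scale, on which the change of a low gene is understated.

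The spindle kinesins were present mainly in G2/M-high cells. Their summed level was 0.157 and 0.149 in cycle-low cells, 0.433 and 0.371 in S-high cells and 3.81 and 3.48 in G2/M-high cells, so that G2/M-high cells held 24.3-fold and 23.4-fold more than cycle-low cells. The difference of 3.49 ± 0.23 (SD, n = 2) per 10000 UMIs gave an exact two-sided sign-flip p of 0.5, the smallest that 2 libraries allow. Each of the 12 spindle kinesins was at least 2-fold higher in G2/M-high than in cycle-low cells in both libraries, as were 6.01% of the 12486 genes with at least 100 UMIs. Only 6 of the 12 reached the mean of 0.1 that the test required, and since most of their molecules lay in G2/M-high cells, a gene high there was the more likely to reach it. All 6 were called higher, and the share of all 7131 tested genes called higher was 26%. When no minimum was set, all 12 were called higher. The groups were drawn with earlier results of these data known. Kif2a, which also acts at spindle poles, was placed among the others and was not 2-fold higher in both libraries.

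Kif23, which forms centralspindlin with Racgap1 at the midzone, had a level of 0.0149 and 0.0120 in cycle-low cells and 0.543 and 0.499 in G2/M-high cells. The difference was 2.45 ± 0.07 (SE, adjusted p = 4.77e-08). Kif20a, the motor that brings the chromosomal passenger complex to the midzone, went from 0.00982 and 0.00956 to 0.442 and 0.408, a difference of 2.26 ± 0.08 (SE, adjusted p = 1.45e-07). For both genes the cycle-low values of the libraries lay together and far below both G2/M-high values. Kif20b, a plus-end motor of cytokinesis, went from 0.0204 and 0.0231 to 0.461 and 0.418, a difference of 2.15 ± 0.08 (SE, adjusted p = 1.66e-07).

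Among the motors that act on chromosomes and microtubule ends the picture was the same. Kif22, a chromokinesin that pushes chromosome arms towards the equator, was at 0.0451 and 0.0479 in cycle-low cells and at 0.617 and 0.620 in G2/M-high cells. Its difference was 2.29 ± 0.07 (SE, adjusted p = 4.36e-08). Kif4, a chromokinesin that also limits the length of the midzone, was at 0.00916 and 0.00644 and at 0.370 and 0.311, and differed by 2.03 ± 0.08 (SE, adjusted p = 1.83e-07). Kif2c, a depolymerase at the centromere that corrects faulty attachments, was at 0.00560 and 0.00593 and at 0.373 and 0.333, and differed by 2.097 ± 0.08 (SE, adjusted p = 1.79e-07). As ratios of levels, these 6 genes were between 12.9-fold and 66.7-fold higher, with Kif22 lowest and Kif2c highest in replicate 1.

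The other 6 spindle kinesins lay under the minimum and are given by their UMIs, with exact 95% intervals of the ratio per UMI that cover counting error only. Kif11, the motor that slides spindle poles apart, had 18 and 12 UMIs in cycle-low cells and 431 and 371 in G2/M-high cells, a ratio of 36.5-fold (95% interval 22.8 to 62.2) and 48.6-fold (95% interval 27.5 to 94.9). Kif15, which can stand in for Kif11, had 17 and 10 against 382 and 348 UMIs, a ratio of 34.3-fold (95% interval 21.1 to 59.4) and 54.7-fold (95% interval 29.4 to 115). Kif14, which works with citron kinase in cytokinesis, had 7 and 5 against 242 and 226 UMIs, a ratio of 52.7-fold (95% interval 25.2 to 133) and 71.0-fold (95% interval 29.99 to 221). For all 3 genes the intervals of the 2 libraries overlapped each other, and none came near 1. Kif18a, which dampens chromosome movements at the equator, and Kifc1, a minus-end motor that focuses spindle poles, had ratios of 9.52-fold (95% interval 6.57 to 14.2) and 9.48-fold (95% interval 6.46 to 14.3) for Kif18a and 9.66-fold (95% interval 7.51 to 12.6) and 10.97-fold (95% interval 8.43 to 14.5) for Kifc1. Kif18b, which shortens astral microtubules, had only 3 and 2 UMIs in cycle-low cells and 41 and 60 in G2/M-high cells, so its ratio of 20.8-fold (95% interval 6.65 to 105) and 47.1-fold (95% interval 12.5 to 398) is poorly bounded.

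**Figure D1:**
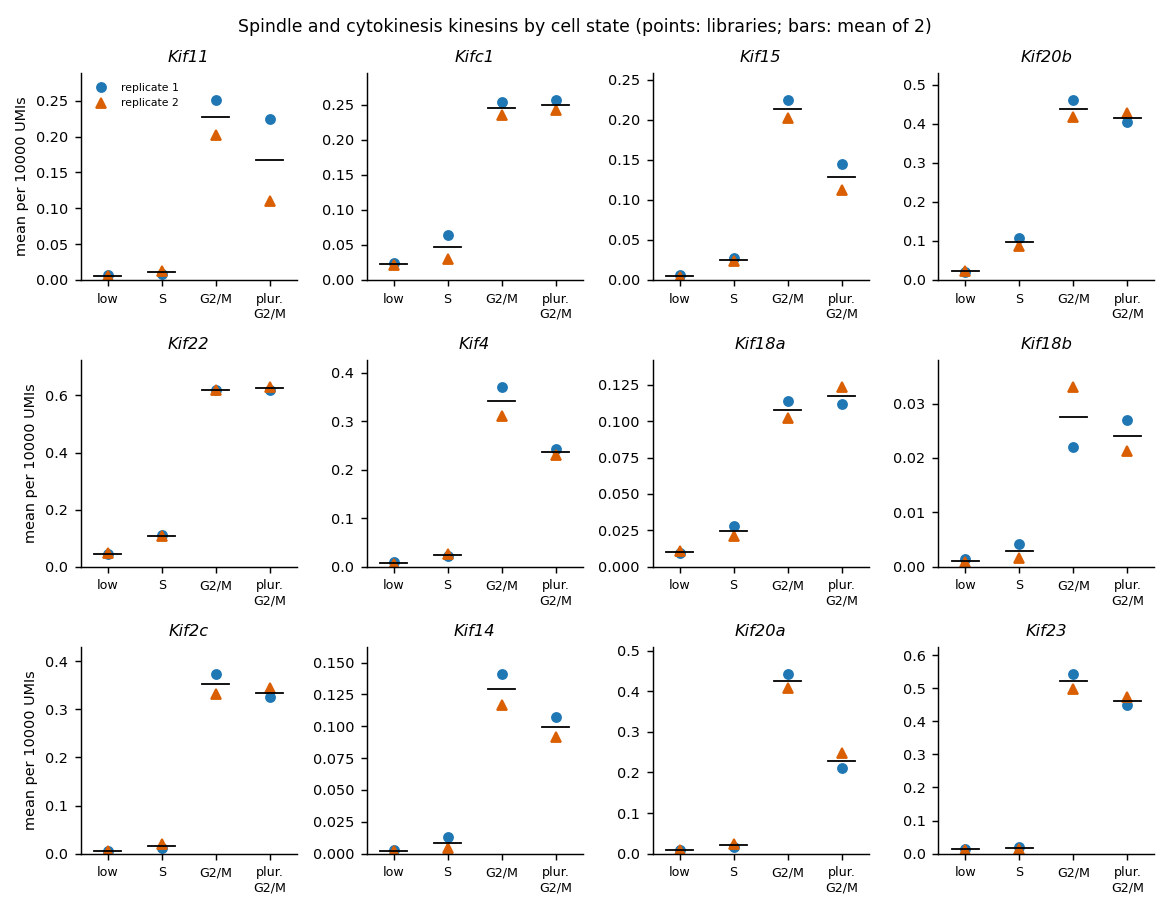
Level of each of the 12 spindle and cytokinesis kinesins (vertical axis, mean per 10000 UMIs, from 0) in cycle-low (low), S-high (S) and G2/M-high (G2/M) other cells and in pluripotent-like G2/M-high cells (plur. G2/M); a circle is replicate 1, a triangle replicate 2 and a bar their mean. Both G2/M-high groups lie above cycle-low and S-high cells for every gene. Kif20a, Kif4, Kif15 and, by less, Kif23 lie lower in pluripotent-like than in other G2/M-high cells in both libraries.

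Reads of some of these genes cannot be fully told from those of neighbours. Kif18a, Kif4 and Kif20a share exonic positions with Mettl15, Pdzd11 and Cdc23 on the opposite strand, and no source used here states whether strand was used in counting. Kifc1 has a near-identical copy, Kifc5b, with a row of its own, so that its count is uncertain to that extent.

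As these members moved together, their promoters were read from RefSeq (GRCm38.p6, 250 bases before to 50 after the start), which had an entry for 11 of the 12 spindle kinesins and 10 of the 16 transport kinesins. A pair of motifs known from genes of G2 and mitosis was searched on both strands: the cell cycle genes homology region or CHR (TTTGAA, or TTCAAA on the other strand) and the CCAAT box (CCAAT or ATTGG), which can share a letter at their ends. A CHR variant (TTTAAA) was searched too and was in 2 of the 11 spindle promoters (18.2%), both of which also held a CHR, against 13.2% of all. Of the 11 spindle promoters, 10 (90.9%) held a CHR, against 18.1% of the first listed promoters of 27025 genes. A CCAAT box was in 7 (63.6%), against 37.9%, and both together in 7 (63.6%), against 10.9%. None of the 10 transport promoters listed first held a CHR (0%), though another promoter of Kif1a had one 44 bases before its start, and 3 (30%) held a CCAAT box. The motifs did not follow the levels throughout: Kif26b, lower in G2/M-high cells, held a CHR 9 and a CCAAT box 73 bases before its start, while Kif24, with more molecules in G2/M-high cells, held no CHR. A CHR was in 1 of 6 promoters of cilia kinesins (16.7%), that of Kif27 with 3 matches, and in 1 of 3 of the other group (33.3%). A match of letters is a description of the window and not a binding site. The stretch from 90 bases before to 25 after the start, counting the start base as 0, is shown for 6 spindle kinesins in which a CHR lay there, and for contrast for Kif1c and Kif13a, transport kinesins without either motif; capitals mark the CHR and CCAAT letters and all else is in lower case.
Kif11: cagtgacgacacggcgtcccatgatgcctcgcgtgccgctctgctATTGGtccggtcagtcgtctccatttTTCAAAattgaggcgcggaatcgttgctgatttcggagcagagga
Kif15: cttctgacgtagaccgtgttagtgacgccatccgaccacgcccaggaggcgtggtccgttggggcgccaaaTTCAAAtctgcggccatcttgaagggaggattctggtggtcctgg
Kif22: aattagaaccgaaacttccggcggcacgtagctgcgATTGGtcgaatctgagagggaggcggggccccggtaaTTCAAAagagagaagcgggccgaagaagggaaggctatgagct
Kif23: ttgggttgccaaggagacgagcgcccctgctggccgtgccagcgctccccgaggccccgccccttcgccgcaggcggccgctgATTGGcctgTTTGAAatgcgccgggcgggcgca
Kif4: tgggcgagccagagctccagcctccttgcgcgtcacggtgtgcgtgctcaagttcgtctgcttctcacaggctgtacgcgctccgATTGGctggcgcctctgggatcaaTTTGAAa
Kif20b: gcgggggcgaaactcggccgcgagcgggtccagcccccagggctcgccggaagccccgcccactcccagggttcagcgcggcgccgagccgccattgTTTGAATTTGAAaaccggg
Kif1c: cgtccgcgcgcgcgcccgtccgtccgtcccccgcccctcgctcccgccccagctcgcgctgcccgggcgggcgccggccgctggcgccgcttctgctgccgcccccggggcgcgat
Kif13a: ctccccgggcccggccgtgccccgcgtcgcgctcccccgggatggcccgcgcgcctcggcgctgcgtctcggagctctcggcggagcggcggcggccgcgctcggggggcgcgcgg

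The promoters from which these stretches come are chr19:37376132-37376431, plus strand (Kif11), chr9:122950831-122951130, plus strand (Kif15), chr7:127042371-127042670, minus strand (Kif22), chr9:61946750-61947049, minus strand (Kif23), chrX:100625815-100626114, plus strand (Kif4), chr19:34922108-34922407, plus strand (Kif20b), chr11:70700298-70700597, plus strand (Kif1c) and chr13:46929669-46929968, minus strand (Kif13a). In Kif11 the CCAAT letters began 45 bases and the CHR 19 bases before the start, and in Kif22 they began 54 and 17 bases before it. In Kif23 the CCAAT letters began 7 bases before the start and the CHR 2 bases after it. Kif20b held a pair of adjoining CHR matches 7 and 13 bases after the start and no CCAAT box.

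S-high cells held little spindle kinesin. The summed level was 2.76-fold and 2.50-fold that of cycle-low cells. Kif20b and Kif22 were called higher in S-high than in cycle-low cells, 2 of 16 tested kinesins against 13.1% of all tested genes, and Kif26b and Kif1a were called lower, against 11.1%. Both counts were near the background. Kif20b was at 0.107 and 0.0870 in S-high cells, a difference of 0.69 ± 0.08 (SE, adjusted p = 7.76e-04). Kif22 was at 0.111 and 0.107, a difference of 0.51 ± 0.07 (SE, adjusted p = 0.00137). Kif23 was at 0.0207 and 0.0144 and did not pass the test (adjusted p = 0.646).

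None of the 4 S-phase calls held when the cycle states were read from 3000 UMIs of each cell, where 0 kinesins were higher and 0 lower. Of all tested genes 0.687% were then higher and 0% lower (limma, with 447 and 151 genes at an unadjusted p under 0.05), and state calls matched for 65.7% of cells. From S-high to G2/M-high cells, 7 kinesins were called higher, against 12.4% of all tested genes, and 0 lower, against 7.8% (limma; without adjustment for multiple tests 1059 of all genes were lower at p under 0.05). They were the 6 spindle kinesins, with differences from 1.45 for Kif20b to 2.40 for Kif23, and the transport kinesin Kif5b at 0.32 ± 0.09 (SE, adjusted p = 0.0406), a call that held in 7 of 14 other settings.

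Within the other cells the spindle kinesins stood higher, the higher the G2/M genes stood, as a description with no test. Cells were binned by log2(1 + the G2/M sum). Kif23 was at 0.0195 and 0.0166 where this was 2 to 3, at 0.113 and 0.0951 at 3 to 4, at 0.323 and 0.335 at 4 to 5 and at 1.19 and 1.07 above 6. Kif20a went over the same bins from 0.0116 and 0.0190 to 0.994 and 0.968. Kif15 did not follow this course to the end: it was at 0.289 and 0.263 at 5 to 6 and at 0.226 and 0.255 above 6. Kif4 stood closer at the top, at 0.513 and 0.458 and then 0.605 and 0.499, while Kif22 went from 0.763 and 0.819 to 1.25 and 1.46. The summed transport kinesins stayed between 2.88 and 3.58 over all 6 bins and both libraries.

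**Figure D2:**
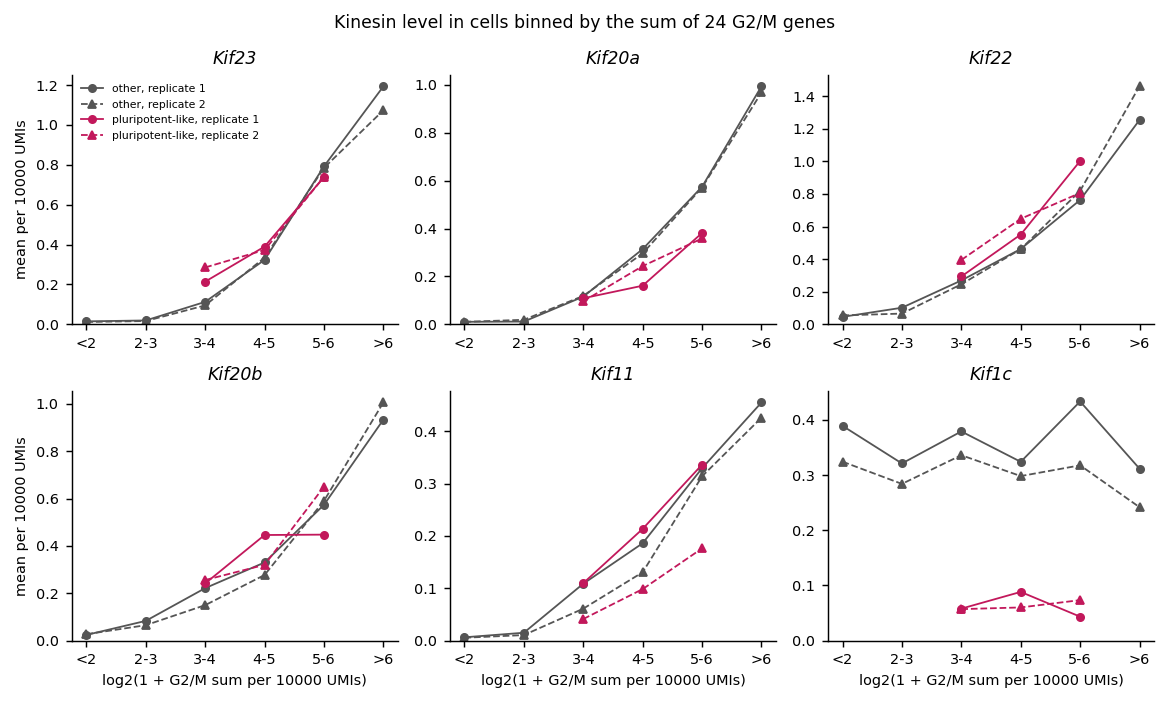
Mean level per 10000 UMIs (vertical axis, from 0) of Kif23, Kif20a, Kif22, Kif20b, Kif11 and Kif1c in cells binned by log2(1 + summed level of 24 G2/M genes) (horizontal axis); grey is other and pink pluripotent-like cells, circles with solid lines replicate 1 and triangles with dashed lines replicate 2. The 5 spindle kinesins stand higher in higher bins, Kif20a lies lower in pluripotent-like than in other cells from 4 upwards, and Kif1c lies below 0.1 in all pluripotent-like bins.

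The G2/M-high other cells were then split at the median share of late genes (such as Cdc20, Ccnb1 and Cenpa) in the sum of late and early genes (such as Top2a and Mki67). Of 16 tested kinesins 3 were higher in late cells, against 17.5% of all tested genes, and 3 were lower, against 16.4%, so that both counts were near the background. Kif20a was at 0.351 and 0.302 in early and 0.533 and 0.513 in late cells, a difference of 0.55 ± 0.08 (SE, adjusted p = 5.65e-07). Kif2c was at 0.312 and 0.254 in early and 0.435 and 0.411 in late cells, a difference of 0.45 ± 0.08 (SE, adjusted p = 1.92e-05). Kif22 was at 0.503 and 0.530 in early and 0.732 and 0.711 in late cells, a difference of 0.42 ± 0.08 (SE, adjusted p = 5.72e-05). For each of the 3 genes both late values lay above both early values. Their adjusted p-values came from 4 profiles and a variance shared over all tested genes (38.3 total degrees of freedom), and do not stand for many replicates.

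Kif23, Kif20b and Kif4 did not pass the test, with differences of 0.16 ± 0.08, 0.17 ± 0.08 and -0.05 ± 0.08 (SE). Kif15 had a level of 0.264 and 0.226 in early and 0.185 and 0.177 in late cells. The lower genes were Kif26b at -0.38, Kif1a at -0.32 and Kif1c at -0.32. Late cells also had a higher G2/M sum, with medians of 37.3 and 32.8 per 10000 UMIs against 24.4 and 23.4 in early cells, and its part in these differences was not tested. None of the 6 calls held when no minimum level was set, but then 0 of 17408 genes were called in either direction (limma, with 1751 higher and 1907 lower at an unadjusted p under 0.05), and the differences of Kif20a, Kif2c and Kif22 were still 0.55, 0.45 and 0.42.

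The partners of the spindle kinesins were called together with them. All 13 genes of the list, which holds the chromosomal passenger complex, centralspindlin and spindle assembly factors, passed the minimum. In G2/M-high against cycle-low cells 13 of 13 were higher, against 26% of all tested genes, with a median of 3.03 against 0.01 over all tested genes. They were led by Birc5 at 4.18 ± 0.11, Nusap1 at 3.79 ± 0.08 and Cdca8 at 3.43 ± 0.07 (SE). Cenpe, the kinetochore kinesin, was at 0.0304 and 0.0180 in cycle-low and 0.939 and 0.887 in G2/M-high cells, a difference of 3.03 ± 0.07 (SE, adjusted p = 2.01e-08). In S-high against cycle-low cells 11 of 13 were higher and 0 lower, against 13.1% and 11.1% of all tested genes, with a median of 0.51. Within G2/M, 9 were higher in late cells and 2 lower, against 17.5% and 16.4%, led by Plk1 at 0.74, Cenpe at 0.67 and Hmmr at 0.55. As for the kinesins, no late or early call was left when no minimum level was set, and 0.687% of all genes were called higher in S-high cells with cycle states from 3000 UMIs.

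Of the 6 tested spindle kinesins, Kif20a and Kif4 were lower in pluripotent-like than in other G2/M-high cells, and the other 4 were not called. The summed spindle level was 3.12 and 3.05 in pluripotent-like cells against 3.81 and 3.48, or 1.22-fold and 1.14-fold lower. At like G2/M sums, given below with no test, it was not lower throughout. Of 16 tested kinesins, 0 were called higher in pluripotent-like cells, against 27.8% of all tested genes, and 11 lower, against 48.1% (limma; 2033 of all genes were higher at an unadjusted p under 0.05). The median difference of all tested genes was -0.17, and the values below are to be read against it. Kif20a was at 0.442 and 0.408 in other and 0.210 and 0.248 in pluripotent-like cells, a difference of -0.67 ± 0.08 (SE, adjusted p = 7.53e-05). Kif4 was at 0.370 and 0.311 in other and 0.243 and 0.230 in pluripotent-like cells, a difference of -0.39 ± 0.08 (SE, adjusted p = 0.00153). For both genes the 2 pluripotent-like values lay below the 2 other values.

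Kif22 had a level of 0.617 and 0.620 in other and 0.620 and 0.629 in pluripotent-like cells, a difference of 0.01 ± 0.07 (SE, adjusted p = 0.889). Kif2c differed by -0.06 ± 0.08 (SE, adjusted p = 0.511), Kif20b by -0.06 ± 0.08 (SE, adjusted p = 0.489) and Kif23 by -0.15 ± 0.07 (SE, adjusted p = 0.0902). These 4 genes missed the threshold, which does not show that they were alike. Of the genes under the minimum, Kif15 had 59 and 107 UMIs in pluripotent-like cells, a ratio per UMI to other G2/M-high cells of 0.658-fold (95% interval 0.492 to 0.868) and 0.587-fold (95% interval 0.468 to 0.731). For Kif11 the ratio was 0.900-fold (95% interval 0.710 to 1.13) and 0.545-fold (95% interval 0.435 to 0.678), so that it was below 1 beyond counting error in replicate 2 alone. For Kif14 it was 0.828-fold (95% interval 0.592 to 1.13) and 0.819-fold (95% interval 0.639 to 1.04). The intervals of Kif14, Kif18a, Kif18b and Kifc1 held 1 in both libraries. Without a minimum level limma called Kif15 (adjusted p = 0.00266) and Kif14 (adjusted p = 0.0158) lower, against 27.5% of all genes. Kif11 was not called there (adjusted p = 0.216).

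The G2/M-high class took in nearly all pluripotent-like cells and 27.7% and 25.2% of the others, and the G2/M sums were not equal, with medians of 23.1 and 23.9 per 10000 UMIs in pluripotent-like and 29.3 and 26.7 in other cells. The comparison was therefore repeated, as a choice made after seeing the data, with the other cells weighted to the same G2/M sums. The S-phase sums were not matched. Before weighting, their medians were 21.6 and 21.2 per 10000 UMIs in pluripotent-like and 16.8 and 15.6 in other G2/M-high cells. The part of the S-phase sums in these results was not tested. Kif20a stayed lower at -0.41 (adjusted p = 0.00109) and Kif4 at -0.24 (adjusted p = 0.0143). Kif22 and Kif2c were now called higher, at 0.24 (adjusted p = 0.0102) and 0.22 (adjusted p = 0.0223). At a G2/M sum in the bin of 4 to 5, with no test, Kif20a was at 0.314 and 0.296 in other and 0.161 and 0.243 in pluripotent-like cells, and Kif22 at 0.462 and 0.461 and 0.551 and 0.648, so that the genes lay on opposite sides. The summed spindle level in that bin was 2.71 and 2.49 in other and 2.90 and 2.65 in pluripotent-like cells. At 3 to 4 it was also higher in pluripotent-like cells, at 1.77 and 1.73 against 1.37 and 1.09. At 5 to 6 it was lower, at 4.59 and 4.48 against 5.07 and 5.05. Over all cells of both identities, whatever their state, Kif20a and Kif4 were higher in pluripotent-like cells by 0.53 and 0.74. Their direction thus differed between all cells and G2/M-high cells, a class that does not hold the whole cycle state fixed.

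The partners moved in the same comparison: 9 of 13 were lower in pluripotent-like G2/M-high cells and 0 higher, against 48.1% and 27.8% of all tested genes, with a median of -0.43 against -0.17, led by Racgap1, the partner of Kif23 in centralspindlin, at -1.22 ± 0.08 (SE, adjusted p = 2.66e-06). Cenpe and Aurkb, the kinase of the chromosomal passenger complex, differed by -0.73 and -0.73 on the log2 scale. Racgap1 was at 0.886 and 0.930 in other and 0.337 and 0.327 in pluripotent-like cells, and Kif23 at 0.543 and 0.499 in other and 0.448 and 0.472 in pluripotent-like cells was not called.

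The same late and early split within pluripotent-like G2/M-high cells, added after seeing the data, called 0 of 16 kinesins in either direction, against 0% of all tested genes higher and 0.112% lower (limma; 424 and 385 genes at an unadjusted p under 0.05). The difference between the identities was tested directly, with 0.323% of all genes called higher and 0.421% lower, and Kif2c was the 1 kinesin called. It was at 0.386 and 0.393 in early and 0.264 and 0.296 in late pluripotent-like cells, whereas in other cells the late values were the higher ones, and the difference of the differences was -0.82 ± 0.15 (SE, adjusted p = 0.0388). That call held in 6 of 13 other settings. For Kif23 the difference was -0.70 ± 0.14 (SE, adjusted p = 0.0670) and for Kif20a -0.75 ± 0.18 (SE, adjusted p = 0.105). In pluripotent-like cells the late group had the lower G2/M sum, with medians of 18.9 and 19.3 against 27.7 and 30.4 per 10000 UMIs, the reverse of the other cells, and its part in the result was not tested.

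Transport kinesins were present in all cycle states. Their summed level was 3.32 and 2.89 in cycle-low, 3.24 and 2.95 in S-high and 3.41 and 3.28 in G2/M-high cells, and the lower G2/M-high value lay below the higher cycle-low value. Of the 14 with at least 100 UMIs, 0 were at least 2-fold higher and 0 at least 2-fold lower in both libraries, against 6.01% and 4.73% of all genes. In the test, 2 of 8 were higher in G2/M-high cells and 2 lower, against 26% and 22.6% of all tested genes, so that both counts were near the background. Across all groups 9 of 16 tested kinesins were higher and 3 lower. The transport genes called higher were Kif5b, the widespread heavy chain of conventional kinesin, and Kifc3, a minus-end motor of cell junctions.

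Kif5b was at 1.18 and 0.927 in cycle-low and 1.49 and 1.34 in G2/M-high cells, a difference of 0.40 ± 0.09 (SE, adjusted p = 0.00709). Kifc3 was at 0.225 and 0.220 in cycle-low and 0.267 and 0.332 in G2/M-high cells, a difference of 0.30 ± 0.09 (SE, adjusted p = 0.0176), but was not called at a pseudocount of 0.01, without a minimum level or without the library term. Kif2a, a depolymerase at spindle poles and in neurons that shares exonic positions with Dimt1, was at 0.314 and 0.333 in cycle-low and 0.470 and 0.508 in G2/M-high cells, a difference of 0.47 ± 0.08 (SE, adjusted p = 0.00169). The 3 differences lay between 0.30 and 0.47, and those of the 6 spindle kinesins between 2.03 and 2.45.

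The kinesins lower in G2/M-high cells were Kif26b, Kif1a and Kif3a. Kif26b, a kinesin linked to cell adhesion and Wnt signalling in development, was at 0.193 and 0.153 in cycle-low and 0.0439 and 0.0447 in G2/M-high cells, a difference of -0.91 ± 0.10 (SE, adjusted p = 1.40e-04). Kif1a, the carrier of synaptic vesicle precursors in axons, was at 0.182 and 0.114 in cycle-low and 0.0513 and 0.0576 in G2/M-high cells, a difference of -0.67 ± 0.12 (SE, adjusted p = 0.00163). Kif3a, a motor subunit of kinesin-II that builds cilia, was at 0.238 and 0.237 in cycle-low and 0.147 and 0.149 in G2/M-high cells, a difference of -0.44 ± 0.07 (SE, adjusted p = 0.00139). For each of the 3 genes both cycle-low values lay above both G2/M-high values. The states also lay in different clusters: clusters 3, 5 and 10, which hold most G2/M-high other cells, held 0% cycle-low cells, and clusters 1, 6 and 8 between 87.0% and 96.9%. Over all cells of cluster 10, Kif26b was at 0.113 and 0.237 and Kif1a at 0.111 and 0.175, against 0.00867 and 0.00866 for Kif26b and 0.0315 and 0.0329 for Kif1a in cluster 5, so that the G2/M-high clusters differed among themselves, and the part of cluster in these differences was not tested. Kif1a and Kif26b were also lower in S-high cells, at differences of -0.47 and -0.73. Kif1b, Kif1c, Kif13a and Kif21a passed neither test, with G2/M-high differences from -0.02 to 0.09.

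**Figure D3:**
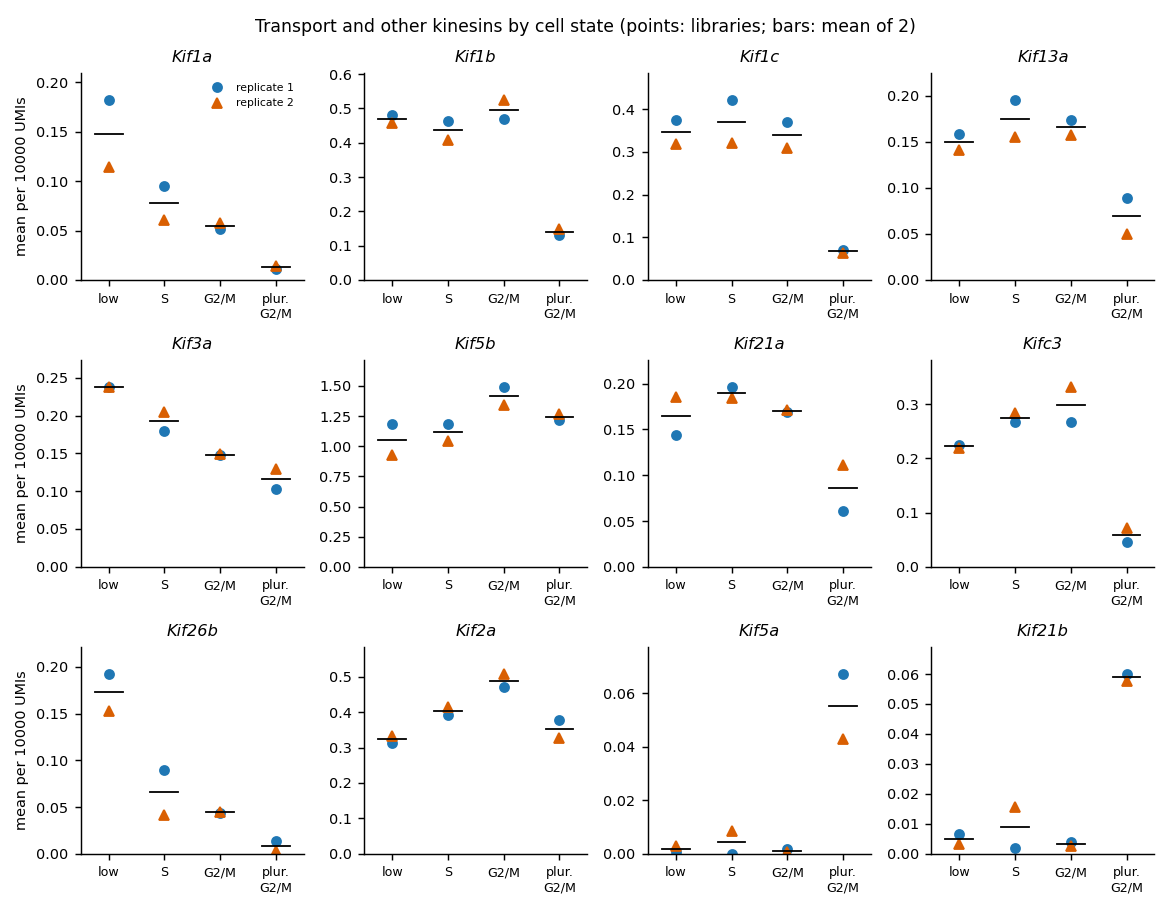
Level of 12 transport and other kinesins (vertical axis, mean per 10000 UMIs, from 0) in cycle-low (low), S-high (S) and G2/M-high (G2/M) other cells and in pluripotent-like G2/M-high cells (plur. G2/M); a circle is replicate 1, a triangle replicate 2 and a bar their mean. Kif1b, Kif1c and Kifc3 lie far lower in pluripotent-like cells, Kif1a, Kif26b and Kif3a lie highest in cycle-low cells, and Kif5a and Kif21b are near 0 except in pluripotent-like cells.

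Most tested transport kinesins were lower in pluripotent-like than in other G2/M-high cells. Their summed level was 3.41 and 3.28 in other and 2.01 and 2.12 in pluripotent-like G2/M-high cells (1.70-fold and 1.55-fold lower), which is a mean difference of -1.28 ± 0.18 (SD, n = 2) per 10000 UMIs (exact two-sided sign-flip p = 0.5, the smallest possible). In the test 7 of 8 were lower and 0 higher, against 48.1% and 27.8% of all tested genes. Of the 14 with at least 100 UMIs, 4 were at least 2-fold lower in both libraries, against 24.8% of all genes, and 1 was at least 2-fold higher, against 10.3%; neither share of the 14, 28.6% and 7.14%, was far from that of all genes.

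Kif1c, a carrier of secretory vesicles and integrins, was at 0.369 and 0.309 in other and 0.0697 and 0.0637 in pluripotent-like cells. The difference was -1.39 ± 0.08 (SE, adjusted p = 8.86e-07), or 5.30-fold and 4.84-fold lower. Kif1b, which carries mitochondria and vesicles, was at 0.468 and 0.524 in other and 0.130 and 0.148 in pluripotent-like cells, a difference of -1.32 ± 0.09 (SE, adjusted p = 2.16e-06). Kifc3 was at 0.267 and 0.332 in other and 0.0454 and 0.0715 in pluripotent-like cells, a difference of -1.33 ± 0.09 (SE, adjusted p = 1.79e-06). In these 3 genes both pluripotent-like values lay far below both other values. Kif13a, a carrier of endosomal cargo, differed by -0.65 ± 0.08 (SE, adjusted p = 8.73e-05) and Kif21a, which restrains microtubule growth at the cell edge, by -0.55 ± 0.11 (SE, adjusted p = 0.00161).

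Kif1a was at 0.0115 and 0.0137 in pluripotent-like cells, a difference of -0.46 ± 0.12 (SE, adjusted p = 0.00615), and Kif26b at 0.0133 and 0.00246, a difference of -0.42 ± 0.10 (SE, adjusted p = 0.00422). Kif2a differed by -0.38 ± 0.08 (SE, adjusted p = 0.00254). Kif3a, at -0.20 ± 0.07 (SE, adjusted p = 0.0339), lay close to the median of all genes. Kif5b was at 1.49 and 1.34 in other and 1.22 and 1.27 in pluripotent-like cells and was not called, at a difference of -0.18 ± 0.09 (SE, adjusted p = 0.109). With the G2/M sums matched, all of the 7 transport kinesins that were called lower remained so, against 47.6% of all tested genes.

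Of the 19 cargo and minus-end partners, 18 had a row and 11 reached the minimum. In pluripotent-like cells 2 of 11 were higher and 4 lower, against 27.8% and 48.1% of all tested genes, with a median of -0.05 against -0.17 over all genes. Klc1, the light chain that ties cargo to conventional kinesin, was at 0.488 and 0.498 in other and 0.191 and 0.223 in pluripotent-like cells, a difference of -0.95 ± 0.10 (SE, adjusted p = 3.40e-05). Kifap3, the non-motor subunit that binds Kif3a and Kif3b, was at 0.308 and 0.347 in other and 0.618 and 0.540 in pluripotent-like cells, a difference of 0.67 ± 0.09 (SE, adjusted p = 1.52e-04), while its partner Kif3a was lower. Dync1li1, a light chain of dynein, was higher at 0.63 ± 0.07 (SE, adjusted p = 6.62e-05). Between cycle states 3 of 11 were lower in G2/M-high than in cycle-low cells, against 22.6% of all tested genes, so that this count was near the background. They were Mapk8ip3 at -0.35, Dync1li2 at -0.31 and Dync1h1 at -0.30. Mapk8ip3 alone was lower in S-high cells, against 11.1% of all tested genes. Between late and early cells 0 were called, against 17.5% higher and 16.4% lower.

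Kif5a and Kif21b, scarce in the other cells, and Kif26a made up a higher share of UMIs in pluripotent-like than in other G2/M-high cells. Kif5a, a heavy chain known from neurons, had 2 and 1 UMIs in other and 25 and 42 in pluripotent-like G2/M-high cells, a ratio per UMI of 53.3-fold (95% interval 13.3 to 464) and 80.2-fold (95% interval 13.6 to 3241). These ratios rest on very few molecules in the other G2/M-high cells, and Kif5a also had 3 and 8 UMIs in cycle-low and 0 and 5 in S-high other cells. Kif21b, a neuronal motor, had 6 and 6 UMIs in other and 25 and 54 in pluripotent-like G2/M-high cells, a ratio of 17.8-fold (95% interval 7.11 to 52.9) and 17.2-fold (95% interval 7.40 to 48.9). All 4 intervals lay wholly above 1. Kif26a, a relative of Kif26b known from enteric neurons, had 19 and 29 UMIs in other and 15 and 58 in pluripotent-like cells, a ratio of 3.36-fold (95% interval 1.59 to 6.99) and 3.82-fold (95% interval 2.40 to 6.18). It was also present in cycle-low other cells, with 33 and 19 UMIs. Without a minimum level Kif5a and Kif21b were called higher, at 0.61 (adjusted p = 0.00480) and 0.62 (adjusted p = 0.00175), and Kif26a was not, at 0.38 (adjusted p = 0.0986). Kif5a, with fewer than 100 UMIs in all, is not counted in the 2-fold shares above.

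The remaining 6 transport kinesins lay under the minimum. Kif5c, the third heavy chain of conventional kinesin and known from neurons, had 162 and 123 UMIs in other and 26 and 43 in pluripotent-like G2/M-high cells, a ratio of 0.684-fold (95% interval 0.434 to 1.04) and 0.667-fold (95% interval 0.460 to 0.951). Kif3b, the partner of Kif3a in kinesin-II, had 104 and 98 UMIs in other and 11 and 35 in pluripotent-like cells, a ratio of 0.451-fold (95% interval 0.218 to 0.840) and 0.682-fold (95% interval 0.450 to 1.01). Kif16b, a motor of early endosomes, had 152 and 156 and 17 and 51 UMIs in these groups, a ratio of 0.477-fold (95% interval 0.271 to 0.789) and 0.624-fold (95% interval 0.446 to 0.861). The interval of Kif16b lay below 1 in both libraries, that of Kif5c in replicate 2 alone and that of Kif3b in replicate 1 alone. Without a minimum level limma called Kif5c (-0.22, adjusted p = 0.0110) and Kif3b (-0.26, adjusted p = 0.0429) lower, against 27.5% of all genes. Kif16b was not called there (-0.33, adjusted p = 0.110). Kif13b, Kif3c and Kifc2 had 164, 309 and 60 UMIs over all cells, and of these the ratio of Kif13b, a carrier of membrane cargo, was 1.36-fold (95% interval 0.489 to 3.29) and 2.86-fold (95% interval 1.30 to 6.52).

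The 7 kinesins of cilia and Hedgehog signalling were scarce, with 862 UMIs in all, and none reached the minimum. Kif24, which blocks the growth of cilia from centrioles, was the 1 of them with more molecules in G2/M-high than in cycle-low cells beyond counting error: it had 8 and 5 UMIs in cycle-low and 45 and 39 in G2/M-high cells, a ratio of 8.58-fold (95% interval 4.002 to 21.1) and 12.3-fold (95% interval 4.83 to 39.8). Kif9, a motor of motile cilia, had 77 and 99 UMIs in cycle-low and 27 and 24 in G2/M-high cells, a ratio of 0.535-fold (95% interval 0.331 to 0.839) and 0.381-fold (95% interval 0.233 to 0.600). In both libraries the interval of Kif24 lay above 1 and that of Kif9 below it. Kif7, which relays Hedgehog signals in the cilium, had 97 and 62 UMIs in cycle-low and 50 and 31 in G2/M-high cells, and its interval held 1 in both libraries. Kif6, a gene of motile cilia, had 36 and 29 UMIs in cycle-low and 6 and 10 in G2/M-high cells, a ratio of 0.254-fold (95% interval 0.0875 to 0.609) and 0.542-fold (95% interval 0.236 to 1.14), which is below 1 beyond counting error in replicate 1 alone. Kif17, Kif27 and Kif19a had 59, 18 and 9 UMIs over all cells, and the intervals of Kif17 and Kif27 held 1 in both libraries.

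Over clusters, the spindle kinesins are given as a description with no test. In clusters 3, 5 and 10, led by Cdc20 and Cenpa or by 2810417H13Rik and Top2a, between 88.9% and 98.0% of cells were G2/M-high. With the pluripotent-like cluster 7 and cluster 12, led by Gpx2 and Epcam (68 cells of replicate 1 and 4 of replicate 2), they held the high values. The summed spindle level was 4.57 and 4.01 in cluster 3, 3.72 and 3.47 in cluster 10, 3.28 and 2.95 in cluster 5, 3.101 and 2.91 in cluster 7 and 2.07 in the replicate 1 cells of cluster 12. In every other cluster with at least 30 cells it was at most 0.304. Cluster 3 held the highest Kif20a, at 0.629 and 0.554 against 0.344 and 0.384 in cluster 10 and 0.310 and 0.235 in cluster 5, while Kif15 was 0.205 and 0.173 in cluster 3, 0.205 and 0.213 in cluster 10 and 0.245 and 0.226 in cluster 5, which overlap.

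Among cycle-low cells, Kif1a and Kif26b differed widely between clusters, again as a description with no test. Kif1a was highest in cluster 6, led by Mylk and Col8a1 with 6 of 6 smooth muscle markers raised, at 0.488 and 0.387, followed by cluster 8, led by Mmp11 and Dcn, at 0.334 and 0.185, and cluster 1, led by Rarres2 and Sostdc1, at 0.201 and 0.162. It was 0.0173 and 0.0446 in cluster 0 and 0.0441 and 0.0438 in cluster 2. Kif26b was also highest in cluster 6, at 0.573 and 0.902, and near 0 in cluster 0 at 0.00405 and 0.00318, but differed from Kif1a in cluster 11, led by Smoc2 and Mest, with 0.250 and 0.172 for Kif26b and 0.0283 and 0.0709 for Kif1a. Kif5b was 1.80 and 1.17 in cluster 6, 1.48 and 1.37 in cluster 4, led by Perp and Krt19, and lowest in cluster 0 at 0.706 and 0.742. Kif1b ranged only from 0.347 to 0.661. The 2 libraries of a cluster lay close for Kif1a in clusters 1, 2 and 4 and apart in cluster 8.

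**Figure D4:**
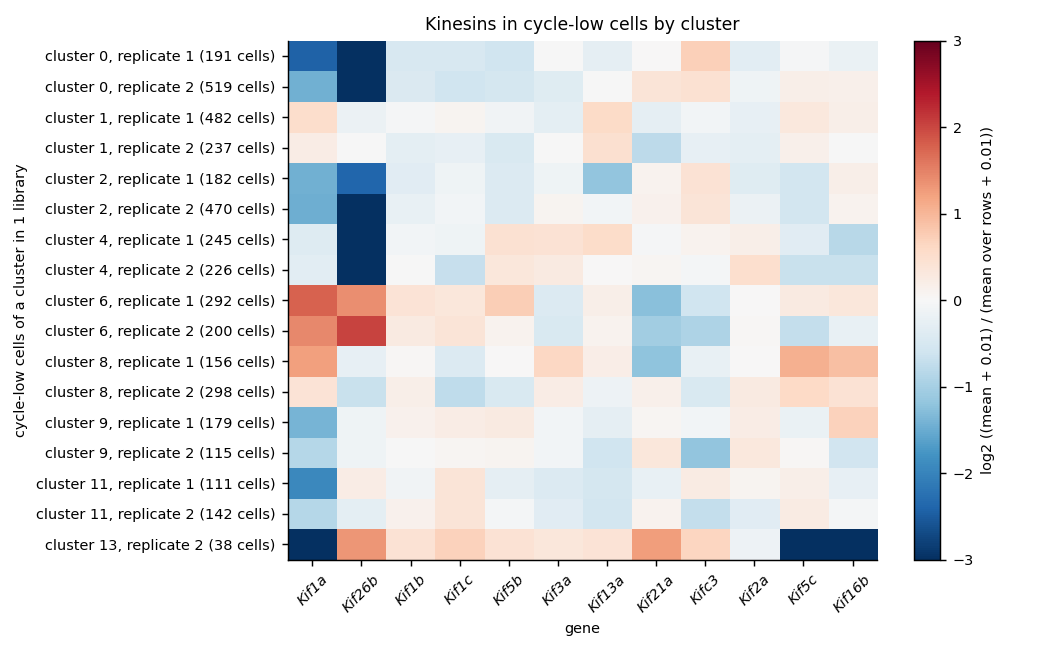
Levels of 12 kinesins (columns) in the cycle-low cells of each cluster and library with at least 30 such cells (rows, with their number of cells), as log2 of the level plus 0.01 over the mean of the rows plus 0.01; red is above and blue below that mean, cut at 3 either way. Kif1a and Kif26b vary most between rows, with both libraries of cluster 6 red for both genes, and Kif1b, Kif3a and Kif2a vary least.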

How the data were processed

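Per the labels and the study's methods, the authors aligned 10x Chromium v2 libraries with Cell Ranger 2.1.1 to mm10, kept cells by number of genes and mitochondrial share, and deposited Seurat's natural log values, ln(1 + UMIs over the cell's UMIs × 10000), for 17408 genes in 7023 cells. From the smallest step in each cell 100% of values came out as whole UMIs, within 0.01. Cells held 4753 to 60990 UMIs, with medians of 15625 and 14292. Strand use in counting and a doublet caller were not named in the labels or methods. No doublet caller was run here, and leaving out cells above the 95th percentile of UMIs stood in for one.

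Cells were clustered (scanpy 1.11.5, Leiden resolution 1, 30 components) without kinesins, partner genes and sex-linked genes. Cluster 7 had all 11 pluripotency markers at least 2-fold raised. Cycle states were cut by Otsu's method. Within 0.25 (log2) of the cuts lay 186 cells (2.65%) for G2/M and 514 (7.32%) for S. A profile was the mean over the cells of 1 state, identity and library, with at least 30 cells, back on the linear scale per 10000 UMIs. limma 3.58.1 (R 4.3.3) fitted log2(profile + 0.1) with library as a term to 8 profiles, and to 4 for late against early cells, with Benjamini-Hochberg adjustment over 7131 genes with a mean of at least 0.1 and a threshold of 0.05. This test treats the profiles of a library as separate samples. Its empirical Bayes step shares the variance over genes, which brought the total degrees of freedom to 8.38 with 8 profiles and to 38.3 with 4. Contrasts of cycle states within pluripotent-like cells had too few cells and were not made. On simulated data 99.5% of 200 genes with a 4-fold change were recovered, and 1.49% of calls were unchanged genes. Intervals and sums of UMIs are exact and cover counting error only.

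Kinesins with a mean of at least 0.1 were named with levels and the others by UMIs. Of each partner list the 3 with the largest called difference were named, plus Cenpe. Further genes (clusters' leading genes, neighbours and copies) were named after their values were seen. The members, lists and states were chosen with earlier results of these data known. Alternatives were other pseudocounts, minimum levels, cuts, clusterings, profiles and fits, and each library alone. 1 overlap between genes is not reported here.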

Additional observations from a re-analysis of the deposited data

Results flagged for a closer look

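Kif2c is listed because its difference between late and early G2/M-high cells differed between pluripotent-like and other cells in a direct test of that difference (limma, Benjamini-Hochberg adjustment). The difference of the differences was -0.82 ± 0.15 (SE, adjusted p = 0.0388), and it was -0.79 in replicate 1 and -0.84 in replicate 2. The late values were above the early ones in other cells and below them in pluripotent-like cells in both libraries. The G2/M and S sums of late against early cells also went opposite ways in the identities, so late need not be the same stage in both. Over 13 other settings it lay between -1.03 and -0.27, with adjusted p up to 0.202, and the call held in 6. Groups of 2 libraries are too small for a check of single outlying samples.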

How the results depend on the processing

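Of 1478 values of single kinesins under alternatives, 1399 kept their direction and side of the threshold, 30 passed it newly, 47 no longer passed and 2 reversed. The reversed ones were Kif4 at 0.74 and Kif20a at 0.53, when pluripotent-like and other cells of all cycle states were compared. That setting called 6 kinesins higher instead of 0, against 31.6% of all tested genes. Matched G2/M sums called 2 higher, against 27.9%. Both settings were added after seeing the data. Percentages here are the shares of all genes tested in the same setting. Without a minimum level the calls for G2/M-high against cycle-low cells were 15 higher (9 in the report), against 12.5%. For S-high against cycle-low cells 1 was lower (2), against 3.08%. For G2/M-high against S-high cells 12 were higher (7), against 4.85%. For pluripotent-like cells 2 were higher (0), against 21.5%. For late cells 0 were higher (3) and 0 lower (3), against 0% each. A minimum of 0.5 left only Kif5b to test, with 1 higher for G2/M-high against cycle-low and against S-high cells, against 35.7% and 19.5%. In each other direction 0 were called, against shares between 10.7% and 48.4%. With a pseudocount of 0.01, 5 were higher in S-high cells (2), against 10.9%. With a pseudocount of 1, 1 was lower there (2), against 8.83%, and 1 was lower in late cells (3), against 11.3%. With cycle sums at 3000 UMIs, 0 were higher and 0 lower in S-high against cycle-low cells, against 0.687% and 0%. In that setting 3 (0) were lower in G2/M-high than in S-high cells, against 16.3%. There 1 (0) was higher in pluripotent-like cells, against 28.9%. With the top 20% cuts 7 were higher in S-high cells, against 17.7%. With summed UMIs 5 (3) were higher in late cells, against 16.7%. Except for fewer genes at higher minimums, the cause was not tested.

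The labels number no replicates, so library was a term of the fit and pairs nothing beyond the library itself. With no replicate block the calls lower in S-high cells were 1 (2), against 4.53% of all tested genes, and those lower in late cells 0 (3), against 1.58%. For G2/M-high against cycle-low cells, 8 were higher (9), against 20.4%. The summed spindle difference of 3.49 per 10000 UMIs was 2.91 with cycle sums at 3000 UMIs and 4.58 with the top 20% cuts, and 3.33 to 3.66 in single libraries; the transport difference between identities was -1.41 to -1.16. With 1 library no test was possible. Counting limits the kinesins under 100 UMIs.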
